A study of Zea mays with 9 samples.

Results

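Endosperm that carried the thk1-iso17 allele was compared with endosperm that carried the thk1-iso15 allele, the only pair of groups in the study in which both sides are thk1 mutants. The 3 thk1-iso17 libraries (genotype labelled thk1_iso17 (-/-)) and the 3 thk1-iso15 libraries (thk1_iso15 (-/-)) were taken as the labels give them and fitted alone, as 6 of the 9 libraries of the series. The remaining 3 libraries, from WT plants labelled B73, served to show on which side of WT each allele stood. Each library was made from poly(A) RNA of endosperm, taken 19 DAP (days after pollination) from selfed ears of plants raised in the field. All groups share the B73 inbred background. The labels do not say how either allele arose, what number of plants or kernels a replicate pools, or whether a genotype was kept as 1 family. The p-values therefore measure the spread between these libraries. A difference between the groups cannot be told apart from a difference between the families that carried the alleles.

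The thk1 gene (thick aleurone1) encodes a maize NOT1 protein, the scaffold on which the CCR4-NOT complex is built. In eukaryotes this complex shortens the poly(A) tails of messenger RNAs and takes part in their repression and decay. In a normal maize kernel the aleurone is the thin outer cell layer of the endosperm, and thk1 mutants are named for extra aleurone layers laid over the starchy tissue. In whole endosperm, fewer cells of a type and less RNA per cell cannot be told apart.

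The files give genes by identifier alone. The table of gene names used here pairs 0 of the 44146 identifiers of nuclear gene models with a name, so thk1 itself is not analysed here, markers of endosperm tissues were not checked, and no role is given for the nuclear genes below. Each nuclear identifier ends in a 6-digit number. These numbers are used as an order of names, and positions on chromosomes are not used here.

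Total gene counts ran from 48102330 to 76651742 in thk1-iso17 libraries and from 21871601 to 47907660 in thk1-iso15 libraries, with no overlap (two-sided exact permutation p = 0.1, the smallest that 3 against 3 allows; 0.2 adjusted over 4 measures). Entries not aligned took 8.27% of thk1-iso17 replicate 3, against 1.62% to 2.54% in the other 8 libraries. The same library had 0.142% of its gene counts in mitochondrial genes and 0.119% in annotated non-coding RNAs. The other 8 libraries had 0.0121% to 0.0265% and 0.0138% to 0.0378% in these 2 classes. Pearson correlations of log2 CPM (counts scaled to a common library size) across genes, which are not independent replicates, ran from 0.939 to 0.971 within alleles and from 0.934 to 0.973 between them. The range between alleles thus took in the range within them.

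Few genes separated the alleles. Of 23035 genes tested, 17 differed (edgeR quasi-likelihood test, Benjamini-Hochberg adjusted p under 0.05), which is 0.0738% of those tested, with 3 higher (0.013%) and 14 lower (0.0608%) in thk1-iso17. At an unadjusted edgeR p under 0.05 there were 1277 genes, or 5.54%, with 542 higher and 735 lower. Of the 17 genes, 11 had numbers within 150 of Zm00001d013435, and 10 of these 11 fell in thk1-iso17 relative to thk1-iso15. The other 6 lay at least 1125 numbers from the nearest of the 11. The identifiers formed 3 pairs of consecutive numbers, all near Zm00001d013435. These pairs were Zm00001d013419 with Zm00001d013420, Zm00001d013429 with Zm00001d013430, and Zm00001d013542 with Zm00001d013543. With called genes linked where their numbers differed by at most 50, there were 2 runs. A limit of 20 split the second into Zm00001d013503 to Zm00001d013511 and Zm00001d013542 to Zm00001d013543, and a limit of 100 joined both into 1 run. At 50, the first held 6 called genes in 21 numbers, Zm00001d013419 to Zm00001d013439, and the second held 4 in 41 numbers, Zm00001d013503 to Zm00001d013543. Zm00001d013303 lay 116 numbers before the first run.

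The count changed with the libraries in the fit. It was 11, 12 and 12 when thk1-iso17 replicate 1, 2 or 3 was left out. Leaving out thk1-iso15 replicate 1, 2 or 3 gave 19, 10 and 14. Among those calls, 9 to 11 were of the 17. DESeq2 called 158 genes, all 17 included, with 44 higher and 114 lower in thk1-iso17.

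**Figure D1:**
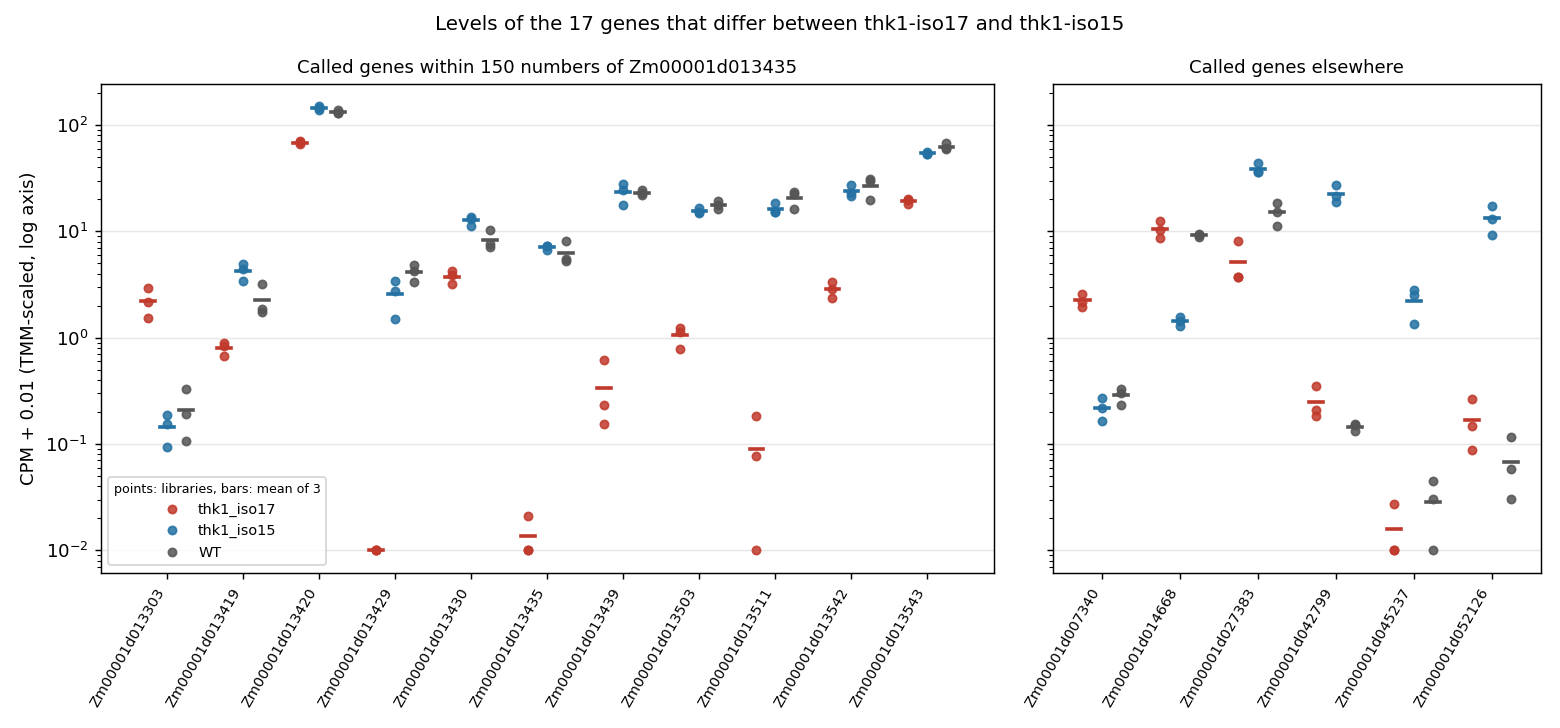
CPM plus 0.01, TMM-scaled and on a log axis, of the 17 genes that differed between the alleles, in thk1-iso17 (red), thk1-iso15 (blue) and WT (grey) libraries; points are libraries and bars are means of 3. At all 11 genes near Zm00001d013435 thk1-iso17 lies further from WT than thk1-iso15 does, whereas at Zm00001d014668, Zm00001d042799, Zm00001d045237 and Zm00001d052126 the blue points stand apart.

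In the first run, 2 genes were near absent from thk1-iso17 endosperm. Zm00001d013435 had 1, 0 and 0 counts in the thk1-iso17 libraries, against 175, 302 and 301 in thk1-iso15 libraries. WT libraries held 109, 313 and 404 counts, so the transcript was detected in every library without the thk1-iso17 allele. On the TMM scale the thk1-iso15 level was 1398 times the thk1-iso17 level, with a 95% exact counting interval from 250.2 to 55296 (edgeR adjusted p = 0.000218). Zm00001d013429 had no count in any of the 3 thk1-iso17 libraries and 36, 143 and 123 counts in thk1-iso15 libraries, beside 100, 239 and 164 in WT. With the floor set at 3 counts over the group, it was at least 181-fold lower in thk1-iso17 (edgeR adjusted p = 0.0210). The next identifier, Zm00001d013430, was not absent: it stood at 4.201, 3.85 and 3.16 CPM in thk1-iso17, and at 11.2, 13.1 and 13.7 CPM in thk1-iso15. Its log2 difference, thk1-iso17 over thk1-iso15, was -1.76 (SE 0.20, edgeR adjusted p = 0.0274). WT libraries, at 10.2, 7.64 and 7.14 CPM, lay between the alleles, but thk1-iso15 did not pass against WT (edgeR adjusted p = 0.0600).

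Zm00001d013439 retained a trace, with 0.144, 0.603 and 0.223 CPM in thk1-iso17 and 17.7, 24.5 and 27.8 CPM in thk1-iso15, and a log2 difference of -6.24 (SE 0.49, edgeR adjusted p = 0.00235). WT libraries had 22.1, 24.2 and 22.7 CPM of it, within the range of thk1-iso15. The pair at the start of the run fell by less. Zm00001d013419 stood at 0.889, 0.817 and 0.669 CPM in thk1-iso17 and at 3.41, 4.38 and 4.88 CPM in thk1-iso15 (log2 difference -2.41, SE 0.30, edgeR adjusted p = 0.0328), and at 1.73, 1.85 and 3.21 CPM in WT. Zm00001d013420 had 66.2, 68.4 and 70.0 CPM in thk1-iso17 and 139.7, 151.3 and 146.0 CPM in thk1-iso15 (log2 difference -1.09, SE 0.13, edgeR adjusted p = 0.0305). Its WT libraries had 138.9, 130.7 and 129.4 CPM. For both genes of the pair the WT libraries again lay between the alleles, without overlap with either. Neither gene passed in thk1-iso15 against WT (edgeR adjusted p of 0.0723 and 0.455).

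Genes with almost equal levels in both alleles lay inside this run. From Zm00001d013419 to Zm00001d013439, 14 genes were tested, 12 had an unadjusted edgeR p under 0.05, and 11 of these 12 were lower in thk1-iso17. Over all genes tested 5.54% were at that p, and 3.19% were lower. The run was drawn from its 6 called genes, which are among the 12, so these counts are a description. Zm00001d013421 had a log2 difference of 0.01 (SE 0.17), with means of 40.6 CPM in thk1-iso17 and 40.3 CPM in thk1-iso15. Zm00001d013426 also had 0.01 (SE 0.28), with means of 13.0 CPM in thk1-iso17 and 12.9 CPM in thk1-iso15. Zm00001d013428, the identifier just before the absent Zm00001d013429, was higher in thk1-iso17, with means of 247 CPM in thk1-iso17 and 192 CPM in thk1-iso15 (log2 difference 0.37, SE 0.16), the one of the 12 that was not lower. Large falls, smaller falls and genes at almost equal levels thus alternated within 21 numbers.

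In the second run, 4 genes fell to unequal levels. Zm00001d013511 had 0.0667, 0.175 and 0 CPM in thk1-iso17 and 18.3, 15.3 and 15.02 CPM in thk1-iso15 (log2 difference -7.68, SE 0.61, edgeR adjusted p = 0.00235). Zm00001d013503 had 1.23, 0.778 and 1.12 CPM in thk1-iso17 and 15.02, 16.7 and 15.2 CPM in thk1-iso15 (log2 difference -3.89, SE 0.24, edgeR adjusted p = 0.000672). In WT, Zm00001d013511 had 23.2, 16.3 and 22.4 CPM and Zm00001d013503 had 19.3, 17.6 and 16.1 CPM. These 2 genes stood at 0.390% and 5.90% of their WT means in thk1-iso17, and at 78.5% and 88.5% in thk1-iso15. Zm00001d013542 had 3.36, 2.84 and 2.33 CPM in thk1-iso17 and 21.3, 27.3 and 22.7 CPM in thk1-iso15 (log2 difference -3.06, SE 0.21, edgeR adjusted p = 0.00121). Its neighbour Zm00001d013543 had 19.9, 17.9 and 19.7 CPM in thk1-iso17 and 53.8, 53.1 and 55.9 CPM in thk1-iso15 (log2 difference -1.50, SE 0.13, edgeR adjusted p = 0.00428). In WT, Zm00001d013542 had 31.4, 29.9 and 19.5 CPM and Zm00001d013543 had 67.5, 59.4 and 61.4 CPM, in both cases above all thk1-iso17 libraries. Both genes fell in each of the 3 pairs, but to unequal degrees. The pairs were formed from called genes only, so they do not describe consecutive genes in general.

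Zm00001d013303 was the one gene near Zm00001d013435 that passed as higher. It stood at 1.51, 2.14 and 2.90 CPM in thk1-iso17 and at 0.0832, 0.144 and 0.177 CPM in thk1-iso15, a log2 difference of 3.94 (SE 0.48, edgeR adjusted p = 0.0328). WT libraries had 0.0964, 0.317 and 0.182 CPM, so the gene was barely detected outside thk1-iso17.

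Of these 11 genes, Zm00001d013435, Zm00001d013439, Zm00001d013503, Zm00001d013511 and Zm00001d013542 passed whichever library was left out, with edgeR adjusted p of at most 0.0289. Zm00001d013543 missed without thk1-iso17 replicate 1 (adjusted p = 0.0553), and Zm00001d013429 missed without thk1-iso17 replicate 1, thk1-iso15 replicate 2 or thk1-iso15 replicate 3 (0.0640, 0.0777 and 0.113). Zm00001d013303, Zm00001d013419, Zm00001d013420 and Zm00001d013430 missed without any 1 of the 6 libraries, with adjusted p from 0.0517 to 0.279.

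The difference reached beyond the called genes. Within 150 numbers of Zm00001d013435 the files list 260 identifiers, of which 211 had a count in the 6 libraries and 172 were tested. An unadjusted edgeR p under 0.05 was found for 78 of the 172, or 45.3%, against 5.54% of all genes tested. Of the 78, 64 were lower in thk1-iso17 and 14 higher; over all genes tested 3.19% were lower and 2.35% higher at that p. At least 2-fold lower were 43 genes (25% of the 172, against 2.22% of all tested), and at least 2-fold higher were 10 (5.81%, against 2.66%). The median log2 difference was -0.25 near Zm00001d013435 and 0.02 over all genes tested. In 66 of the 172 genes all 3 thk1-iso17 libraries lay below all 3 thk1-iso15 libraries, and in 14 above, together 46.5% beside 11.1% of all genes tested. The window was centred on a gene known to differ, so these shares are a description.

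**Figure D2:**
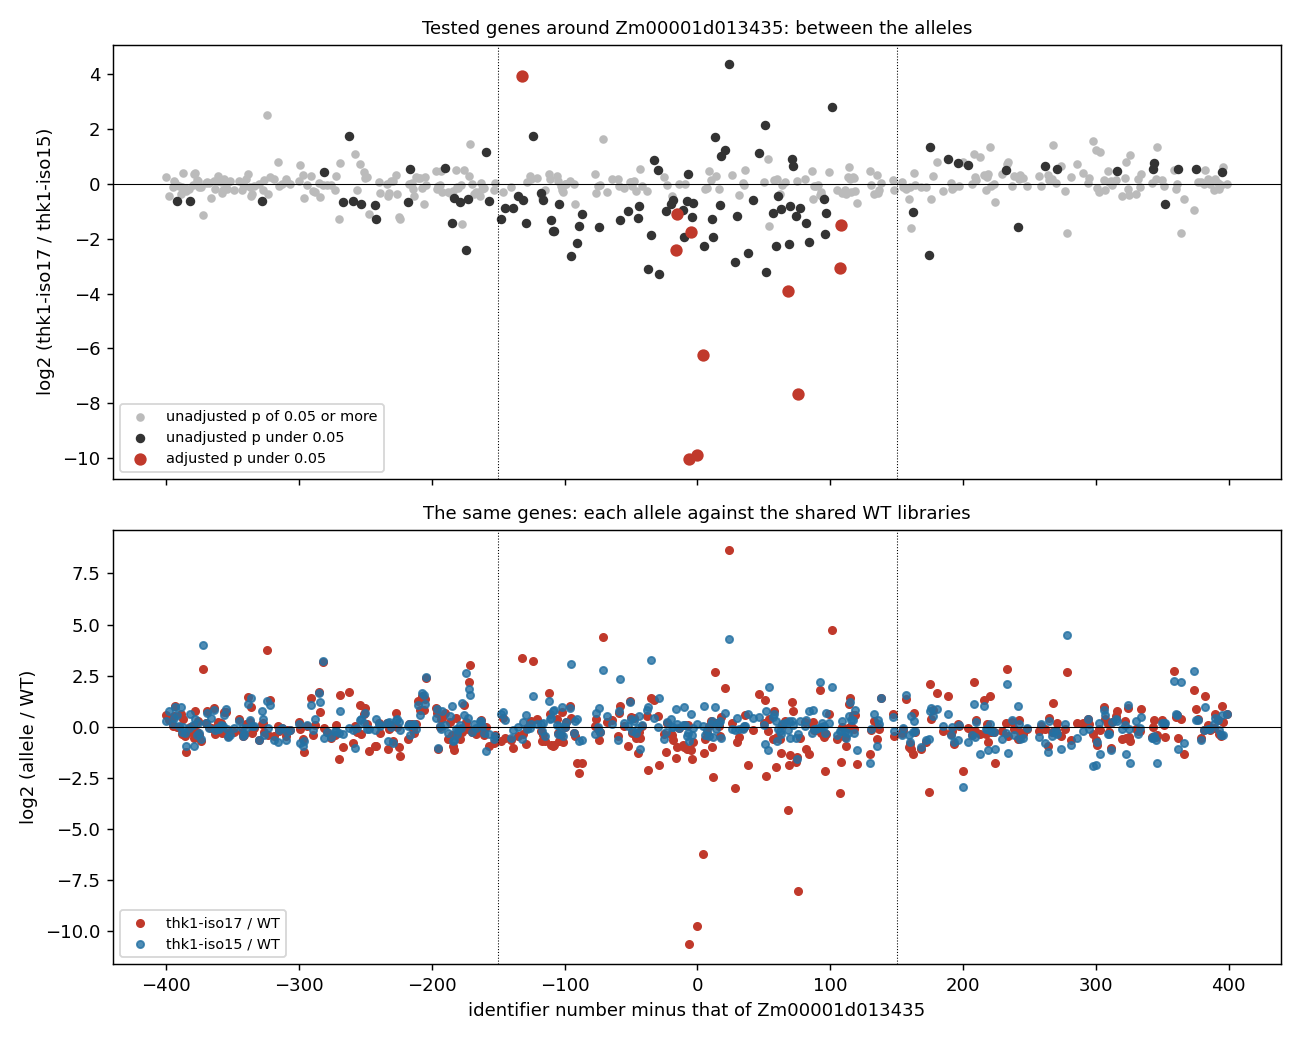
Upper plot: log2 difference, thk1-iso17 over thk1-iso15, of each tested gene against its identifier number relative to Zm00001d013435, with genes past adjusted p under 0.05 in red and those at unadjusted p under 0.05 in black; lower plot: log2 fold of thk1-iso17 (red) and thk1-iso15 (blue) over the WT libraries they share. Dotted lines stand 150 numbers from Zm00001d013435; between them many thk1-iso17 values lie well below 0, down to -10.6, while thk1-iso15 values reach no lower than -1.78.

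Single genes of this stretch that missed the adjusted threshold showed the same separation of libraries. Zm00001d013424 had 25.1, 22.8 and 28.2 CPM in thk1-iso17 and 46.7, 47.1 and 54.8 CPM in thk1-iso15 (edgeR adjusted p = 0.123). Zm00001d013486 was higher in thk1-iso17, with 6.65, 6.58 and 6.21 CPM there and 1.04, 1.96 and 1.35 CPM in thk1-iso15 (adjusted p = 0.0531). The neighbouring number Zm00001d013487 went the other way, with a mean of 0.171 CPM in thk1-iso17 and 1.600 CPM in thk1-iso15 (adjusted p = 0.0822). These 3 genes passed when the WT libraries were added to the edgeR fit, with adjusted p of 0.0267, 0.00956 and 0.0112. So did Zm00001d013290, Zm00001d013494 and Zm00001d013517 (0.0218, 0.0335 and 0.0323). Zm00001d013494 had 20.4, 22.3 and 15.7 CPM in thk1-iso17 and 153.1, 78.0 and 50.7 CPM in thk1-iso15, a wide spread within thk1-iso15. Zm00001d013290 had 126.8, 131.0 and 115.7 CPM in thk1-iso17 and 230.4, 228.4 and 230.6 CPM in thk1-iso15. In both genes the alleles did not overlap. Zm00001d013459 had a log2 difference of 4.37 (SE 0.83), with means of 1.04 CPM in thk1-iso17, 0.0563 CPM in thk1-iso15 and 0 CPM in WT, and did not pass (edgeR adjusted p = 0.315). All of these genes were named after their values had been seen.

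Cut into bins of 50 numbers, the whole order of identifiers gave 664 bins with at least 20 tested genes. The median bin had 4.17% of its genes at an unadjusted edgeR p under 0.05, and 7 bins had over 25%. Of the 7 bins, 6 lay between numbers 13150 and 13549. Inside that range, 13200 to 13249 had 3 of 31 and 13350 to 13399 had 6 of 24, which is not over the cut at 25%. Bins below that cut but well above the median included 45000 to 45049, with 6 of 25, and 45050 to 45099, with 5 of 26. Another was 45350 to 45399, with 7 of 30. The called gene Zm00001d045237 lies between these numbers, so the cut at 25% does not mark every raised place. The highest was 13400 to 13449, where 23 of 33 tested genes (69.7%) were at that p, 19 of them lower in thk1-iso17. The next bin, 13450 to 13499, had 15 of 28, and 13500 to 13549 had 16 of 34. After these came 1 of 24 in the bin from 13550 to 13599, 5 of 21 from 13600 to 13649, 3 of 23 from 13650 to 13699, 1 of 24 from 13700 to 13749 and 5 of 25 from 13750 to 13799. Beyond 150 and up to 400 numbers after Zm00001d013435, 17 of 119 tested genes (14.3%) had an unadjusted edgeR p under 0.05. Of these, 13 were higher and 4 lower in thk1-iso17. At the same distance before Zm00001d013435 it was 20 of 153 (13.1%), with 5 higher and 15 lower. Over all genes tested the share was 5.54%.

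**Figure D3:**
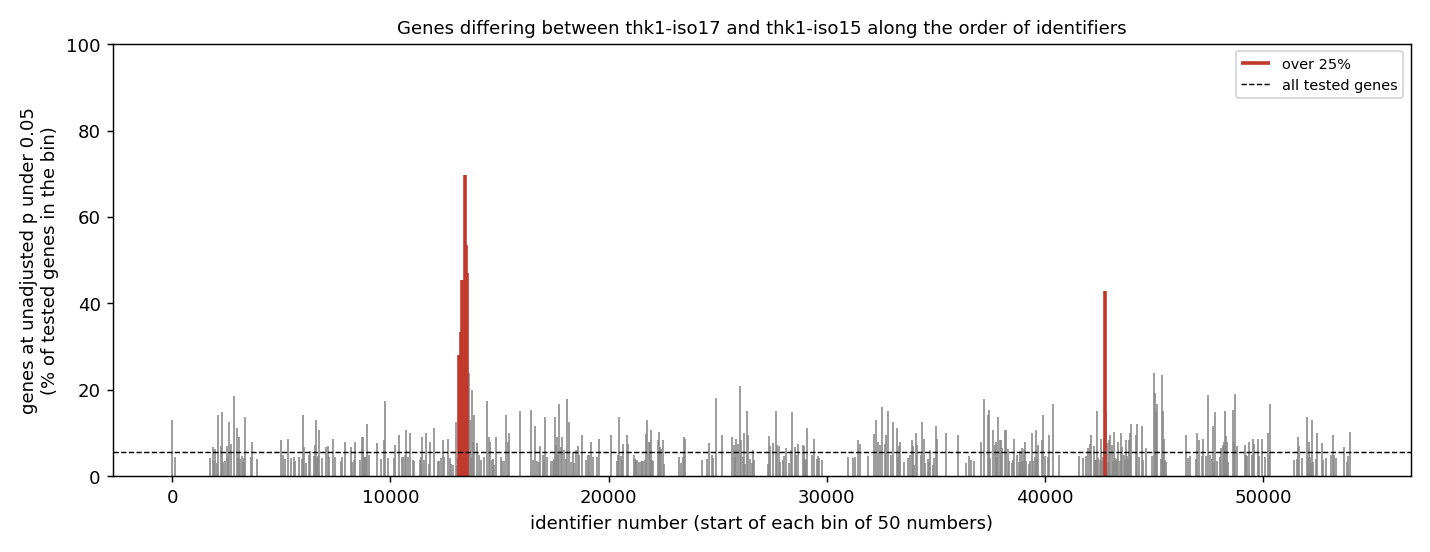
Percentage of tested genes with an unadjusted edgeR p under 0.05 between thk1-iso17 and thk1-iso15, in each bin of 50 identifier numbers with at least 20 tested genes; the dashed line is the share over all tested genes, 5.54%. Of the 7 bins over 25% (red), a single bin lies at 42750 to 42799 and the others lie between 13150 and 13549. That range is not unbroken: 13200 to 13249 (9.68%) and 13350 to 13399 (25%) are not over the cut. Bins at 45000 to 45049 (24%) and 45350 to 45399 (23.3%) stand just below that cut.

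Unbroken rows of neighbours were read from the same unadjusted p-values as the bins, so they describe the same values and are no separate evidence. In the order of tested nuclear genes, at least 4 neighbours in a row had an unadjusted edgeR p under 0.05 at 6 places, 5 of them within 150 numbers of Zm00001d013435. The longest row held 9 genes, from Zm00001d013427 to Zm00001d013440, of which 8 were lower in thk1-iso17. A row of 6 began with Zm00001d013503, with 4 lower and 2 higher. The sixth place held 5 genes, Zm00001d042787 to Zm00001d042795, and all 5 were higher in thk1-iso17.

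Each allele was also set against WT, for the genes near Zm00001d013435 and for those elsewhere. These counts come from 1 edgeR fit of all 9 libraries. Both contrasts share the WT libraries and the genes were chosen by the difference between the alleles, so they are a description. Near Zm00001d013435, all 11 called genes differed from WT in thk1-iso17 at adjusted p under 0.05, beside 14.2% of all genes tested, with 10 lower and 1 higher. In thk1-iso15, 0 of the 11 differed by edgeR, beside 15.5% of all genes tested, and 2 had an unadjusted p under 0.05. By DESeq2 it was 2 genes and by voom 1. Elsewhere, 2 of the 6 called genes differed from WT in thk1-iso17 and 5 of the 6 in thk1-iso15. By their libraries alone, 11 of the 11 genes near Zm00001d013435 lay wholly above or below WT in thk1-iso17, beside 36.6% of all genes tested, and 4 in thk1-iso15, beside 38.2%. Of the 6 elsewhere, 3 did in thk1-iso17 and 5 in thk1-iso15. Over all 172 tested genes near Zm00001d013435, 14 were higher and 42 lower than WT in thk1-iso17 at edgeR adjusted p under 0.05. In thk1-iso15, 5 were higher and 2 lower than WT. Of all 23035 genes tested between the alleles, 1873 were higher and 1441 lower than WT in thk1-iso17. The same counts in thk1-iso15 were 2038 and 1564.

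Among the 6 genes elsewhere, 3 were active in thk1-iso15 and near silent in both thk1-iso17 and WT. Zm00001d042799 stood at 0.200, 0.175 and 0.343 CPM in thk1-iso17 and at 18.7, 27.3 and 21.7 CPM in thk1-iso15, a log2 difference of -6.55 (SE 0.32, edgeR adjusted p = 0.000218). WT libraries had 0.145, 0.141 and 0.121 CPM, and thk1-iso15 was higher than WT by 7.37 on the log2 scale (SE 0.33, edgeR adjusted p = 3.26e-06). Zm00001d052126 followed the same pattern, with 0.256, 0.0778 and 0.137 CPM in thk1-iso17 and 9.28, 13.1 and 17.3 CPM in thk1-iso15 (log2 difference -6.30, SE 0.45, edgeR adjusted p = 0.00134). In WT it had 0.0482, 0.106 and 0.0202 CPM. Zm00001d045237 had 0, 0 and 1 counts in thk1-iso17, 67, 104 and 60 in thk1-iso15, and 0, 2 and 1 in WT. Its thk1-iso15 level was 415 times the thk1-iso17 level, with a 95% exact counting interval from 73.8 to 16468 (edgeR adjusted p = 0.0112).

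In another gene thk1-iso15 stood below the other 2 genotypes. Zm00001d014668 had 10.3, 8.58 and 12.4 CPM in thk1-iso17 and 1.29, 1.41 and 1.57 CPM in thk1-iso15 (log2 difference 2.86, SE 0.24, edgeR adjusted p = 0.00346). WT libraries, with 9.45, 8.91 and 9.30 CPM, overlapped those of thk1-iso17. In thk1-iso15 the gene was lower than in WT, with a log2 difference of -2.69 (SE 0.20, edgeR adjusted p = 0.000153).

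Zm00001d007340 was the one gene elsewhere where thk1-iso17 passed against WT but thk1-iso15 did not. It had 2.15, 1.95 and 2.59 CPM in thk1-iso17 and 0.208, 0.264 and 0.154 CPM in thk1-iso15, with 0.289, 0.317 and 0.222 CPM in WT (log2 difference between the alleles 3.41, SE 0.41, edgeR adjusted p = 0.0306). In thk1-iso17 it was higher than in WT by 3.00 on the log2 scale (SE 0.40, edgeR adjusted p = 0.00210). Zm00001d027383 moved in opposite directions. It had 8.03, 3.74 and 3.71 CPM in thk1-iso17, 43.6, 36.3 and 36.4 CPM in thk1-iso15, and 18.7, 11.2 and 15.3 CPM in WT. The 3 groups did not overlap, and the log2 difference between the alleles was -2.90 (SE 0.32, edgeR adjusted p = 0.0197). Against WT it fell by 1.53 on the log2 scale in thk1-iso17 (SE 0.30, edgeR adjusted p = 0.00959) and rose by 1.37 in thk1-iso15 (SE 0.29, edgeR adjusted p = 0.0136).

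Of these 6 genes, Zm00001d014668, Zm00001d042799 and Zm00001d052126 passed whichever library was left out, with edgeR adjusted p of at most 0.0353. Zm00001d007340 missed without any 1 of the 6 libraries (0.0974 to 0.194), Zm00001d027383 without any but thk1-iso17 replicate 1 (0.0517 to 0.0853), and Zm00001d045237 without any thk1-iso17 library or thk1-iso15 replicate 2 (0.0540 to 0.0697).

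Genes near absent in 1 allele were sought separately, with at most 3 counts over its 3 libraries and at least 1 CPM in each library of the other allele. There were 4. Zm00001d013429, Zm00001d013435 and Zm00001d045237 met this limit in thk1-iso17 and are given above. Zm00001d007210 was the reverse case, with 104, 81 and 60 counts in thk1-iso17 and 0 in all 3 thk1-iso15 libraries. All 3 WT libraries also had 0 counts, so counts were found in the thk1-iso17 libraries only. It was at least 45.4-fold higher than in thk1-iso15, against a floor of 3 counts over the group, but its edgeR adjusted p of 0.0531 lay just outside the threshold. It passed by DESeq2, by voom, with no filter on low counts and with a filter of 1 CPM in 3 libraries. It missed with other scalings (edgeR adjusted p of 0.0541 and 0.0643), with all 9 libraries (0.0522) and in each of the 6 fits without 1 library (0.0755 to 0.279).

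Another 3 genes lay just outside the threshold, of which Zm00001d016660 was named by rule and the others after their values had been seen. Zm00001d024127 had 0.144, 0.0389 and 0.0686 CPM in thk1-iso17 and 2.41, 7.96 and 2.096 CPM in thk1-iso15 (edgeR adjusted p = 0.0505). WT libraries had 0.0964, 0.0529 and 0.0606 CPM, below all thk1-iso15 libraries. Zm00001d016660 had 5.32, 14.2 and 4.89 CPM in thk1-iso17 and 0.291, 0.647 and 0.177 CPM in thk1-iso15 (log2 difference 4.43, SE 0.61, edgeR adjusted p = 0.0619), and 0.771, 1.32 and 0.565 CPM in WT. The alleles did not overlap in either gene. Zm00001d042795 had 15.03, 10.7 and 17.1 CPM in thk1-iso17 and 4.66, 4.05 and 4.70 CPM in thk1-iso15 (log2 difference 1.68, SE 0.23, edgeR adjusted p = 0.0531), and 17.8, 15.9 and 16.4 CPM in WT.

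Zm00001d042795 lies 4 numbers before Zm00001d042799, in the second group of identifiers where the alleles differed. This stretch was chosen after its values had been seen. Of 28 tested genes numbered 42750 to 42799, 12 (42.9%) had an unadjusted edgeR p under 0.05, with 10 higher and 2 lower in thk1-iso17, against 5.54% of all genes tested. In the bins on either side, 2 of 24 and 4 of 26 did. Zm00001d042787, Zm00001d042793, Zm00001d042794 and Zm00001d042795 were lower than WT in thk1-iso15, with log2 differences of -1.25, -1.07, -1.39 and -1.90 (edgeR adjusted p of 0.00620, 0.00411, 0.00359 and 0.000629). The fifth gene of that row, Zm00001d042792, had -0.41 and did not pass (adjusted p = 0.0849). In thk1-iso17 the same 5 genes lay between -0.41 and 0.12, and Zm00001d042787 had 7.12, 5.53 and 7.72 CPM in thk1-iso17, 3.37, 2.44 and 3.02 CPM in thk1-iso15, and 6.89, 6.12 and 7.97 CPM in WT.

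Zm00001d042755 in the same stretch had 11.4, 11.8 and 8.83 CPM in thk1-iso17 and 3.04, 0.431 and 1.15 CPM in thk1-iso15. WT libraries had 9.64, 10.2 and 8.68 CPM, overlapping those of thk1-iso17. In thk1-iso15 the gene was lower than WT (log2 -2.69, SE 0.50, edgeR adjusted p = 0.00729). Between the alleles its edgeR adjusted p was 0.399. Zm00001d042796, the next number after the row of 5, had means of 63.8 CPM in thk1-iso17 and 65.8 CPM in thk1-iso15.

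**Figure D4:**
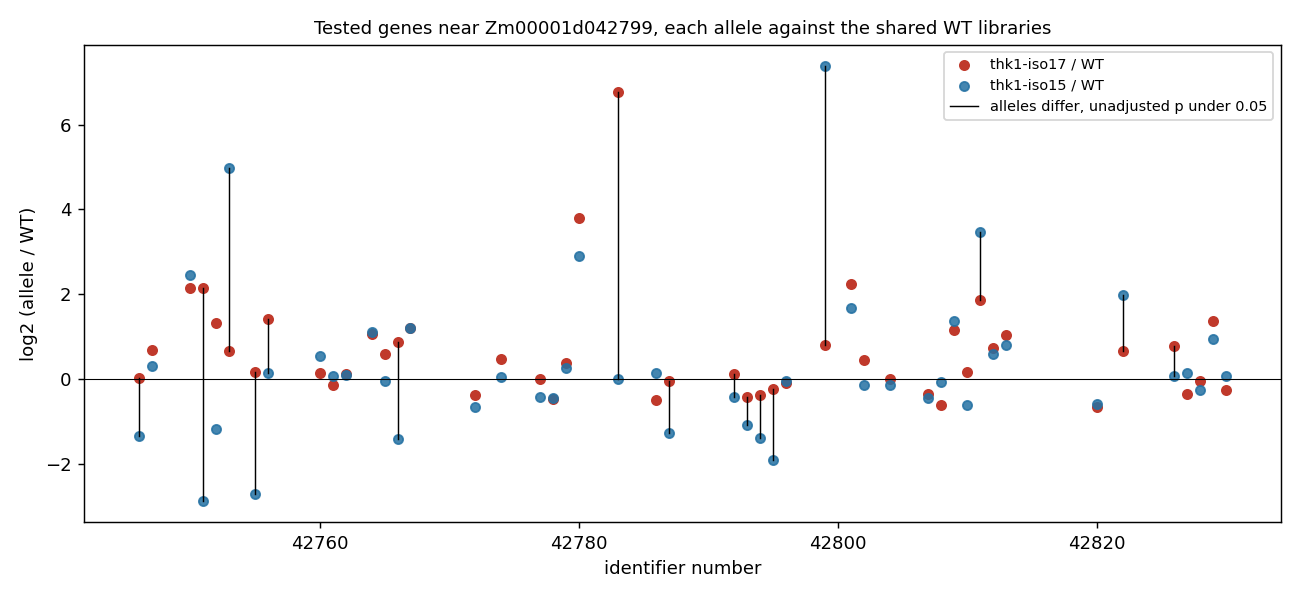
Log2 fold of thk1-iso17 (red) and thk1-iso15 (blue) over the WT libraries they share, for tested genes with identifier numbers around Zm00001d042799; black lines join the alleles where they differed at an unadjusted edgeR p under 0.05. From Zm00001d042787 to Zm00001d042795 the blue points lie below the red ones, and at Zm00001d042799 the blue point stands at 7.37.

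RNA classes outside the nuclear gene models were also compared. All 3 thk1-iso17 libraries had a larger share of counts in annotated non-coding RNAs, 0.0241%, 0.0320% and 0.119%, than any thk1-iso15 library, at 0.0179%, 0.0138% and 0.0209% (p = 0.1 in an exact two-sided permutation test, which 3 against 3 cannot go below; adjusted over the 4 measures, 0.2). The WT libraries had 0.0195%, 0.0378% and 0.0191%, so WT replicate 2 lay above thk1-iso17 replicates 1 and 2. Of 177 annotated non-coding RNAs tested, 42 (23.7%, against 5.54% of all genes tested) had an unadjusted edgeR p under 0.05. All 42 were higher in thk1-iso17, and the median log2 difference of the 177 was 0.78. None passed the adjusted threshold by edgeR or voom, and 1 did by DESeq2. Against WT the median was 0.49 in thk1-iso17 and -0.66 in thk1-iso15. Without thk1-iso17 replicate 3 the median between the alleles was 0.38, with 8 higher and 2 lower at an unadjusted p under 0.05. The 14 mitochondrial genes tested had a median of 2.50, with 6 at an unadjusted p under 0.05 and 0 called by edgeR, DESeq2 or voom. Without that library the median was 0.34 and 0 had an unadjusted p under 0.05. The cause of the higher shares in that library was not tested.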

How the data were processed

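The deposited files hold raw counts per gene, with 46430 genes and 5 summary lines per library, as the values show. HTSeq 0.11.1, StringTie 1.3.6, SAMtools 1.9 and HISAT2 2.1.0 are listed in the submitters' processing notes, with the build B73 RefGen_v4. The annotation, settings and strandedness were not given in the sources used here, so reads of overlapping, antisense or near-identical genes remain uncertain. Summary lines, 33.5% to 47.1% of entries, were left out.

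The 6 mutant libraries were fitted alone in R 4.3.3 with edgeR 4.0.16 (filterByExpr, TMM, glmQLFit, glmQLFTest), and a gene was called where its p, adjusted over all 23035 genes tested by Benjamini-Hochberg, was under 0.05. The common biological coefficient of variation came to 30.4%. CPM are on the TMM scale of a fit of all 9 libraries (23529 genes), which also gave the contrasts with WT. Standard errors are the log2 difference over the square root of F. Intervals and floors cover counting error only. DESeq2 1.42.0, voom in limma 3.58.1, other scalings and filters, a replicate block and leaving out each replicate were alternatives. The pipeline was tested on simulated data, drawn with a single common spread for all genes. It recovered 26% of 50 genes changed 2-fold and 100% of those changed 4-fold, 8-fold or 16-fold, with 11 false calls. Small differences between the alleles can thus be missed. The simulation did not carry the spread of single genes, so these rates need not hold for the real libraries. Some large differences also missed the threshold there, such as Zm00001d016660 (log2 difference 4.43, edgeR adjusted p = 0.0619) and Zm00001d013487 (-3.21, 0.0822). Replicates differed by more than sampling noise (chi-square per degree of freedom of at least 40.7).

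The text names all called genes, genes near absent in 1 allele and Zm00001d016660, which an earlier fit gave the largest rise; others were named after their values were seen. The comparison, the window around Zm00001d013435 and these rules were chosen with earlier results of these data known. Names were sought in a RefSeq table of Zm-B73-REFERENCE-NAM-5.0, which matched all 208 mitochondrial, all 157 plastid and 153 of 154 microRNA genes and no nuclear model.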

Additional observations from a re-analysis of the deposited data

Results flagged for a closer look

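In 4 called genes the alleles lay on opposite sides of WT, with all 3 thk1-iso17 libraries below and all 3 thk1-iso15 libraries above the WT libraries. Of all genes tested, 36.6% lay wholly above or below WT in thk1-iso17 and 38.2% in thk1-iso15. The share with the alleles on opposite sides was not counted. Called genes were chosen by the difference between the alleles, which favours WT lying between them. Their log2 differences, thk1-iso17 over thk1-iso15, were -2.41 for Zm00001d013419, -1.09 for Zm00001d013420, -1.76 for Zm00001d013430 and -2.90 for Zm00001d027383 (edgeR adjusted p of 0.0328, 0.0305, 0.0274 and 0.0197). Of the 4, only Zm00001d027383 was called by edgeR in thk1-iso15 against WT. The means of Zm00001d013430 were 3.74 CPM in thk1-iso17, 12.7 CPM in thk1-iso15 and 8.33 CPM in WT.

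Outside the gene counts, 8.27% of the entries of thk1-iso17 replicate 3 were not aligned, above the highest WT library at 2.54%. The cause was not tested.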

How the results depend on the processing

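The 17 calls between the alleles became 31 with no filter on low counts (10 higher, 21 lower), 158 by DESeq2, 137 by DESeq2 on the genes of the edgeR fit (chosen after seeing the data) and 26 with all 9 libraries. All 17 were called in each of these fits. The count near Zm00001d013435, 11, was 41 by DESeq2, 17 with all 9 libraries and 6 within 50 numbers. Leaving out 1 library gave 10 to 19 calls in all and 5 to 8 near Zm00001d013435. With the replicate number as a block there were 10 calls, 9 of them among the 17, and 5 near Zm00001d013435, and the adjusted p of Zm00001d007210 was 0.415. Whether the replicate numbers pair the libraries could not be decided. Same-numbered libraries had correlations of deviations of -0.12, 0.25 and 0.11. Differently numbered libraries had -0.24 to 0.12, and not every library correlated best with its own number. RLE factors gave 17 calls, upper quartile factors 18, a filter of 1 CPM in 3 libraries 22 and voom 15. Of these calls, 17, 17, 17 and 14 were among the 17. Of the 17 genes, 8 passed under all 14 alternatives run for them, and over 266 values of the 19 genes chosen by rule none changed sign. The alternatives used the same libraries from which these genes were chosen, so a kept sign is no separate support. Link distances of 20 and 100 gave 3 runs and 1 run in place of 2, with 10 called genes in runs each time. The called genes also called against WT numbered 13 in thk1-iso17 under every alternative run, and 4 to 7 in thk1-iso15, against 5. Genes under about 1 CPM rest on few counts, and thk1-iso15 replicate 1 is the shallowest library.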
